A study of Drosophila melanogaster with 3 samples.

Results

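The aminoacyl-tRNA synthetase genes of Drosophila were examined for binding of the protein CG11504. The set holds the 33 protein-coding genes, of 13945 on the 6 chromosome arms, whose symbol is one or a pair of amino acid codes followed by RS, with or without the ending -m. Of these, 15 are marked -m and are called mitochondrial here, and the other 18 are called cytoplasmic. For the amino acids of GlnRS, GlyRS, HisRS, LysRS and ThrRS the set holds no -m gene. Whether any of these genes also supplies mitochondria was not examined, so the classes follow the symbols only. The cytoplasmic PheRS subunits alpha-PheRS and beta-PheRS have a prefix and fall outside the symbol rule, so they were counted with the related genes. Chromatin immunoprecipitation and sequencing (ChIP-seq) with an antibody against GFP had been carried out in 3 biological replicates, each of male and female embryos taken whole between 0 and 18 h of age, from a transgenic line with GFP fused to the C-terminal end of CG11504. All 3 replicates carry that transgene, there is no other group, and libraries without the tag were not analysed here. Chromatin was sonicated to 200 to 800 bp, per the labels. Whole embryos mix all cell types, so a peak does not say in which cells the protein was present. Read depth is unknown, because the deposited lists give peaks and not reads.

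Synthetases join each amino acid to the transfer RNAs that carry it, and so set how the genetic code is read. Cells need these enzymes for protein synthesis in the cytoplasm and for the ribosomes inside mitochondria. In both cases they are made from nuclear genes and translated in the cytoplasm. GluProRS carries the activities for glutamate and proline in 1 protein. Synthetase genes are active in nearly all cells, and mutations in several of their human counterparts cause nerve or muscle disease.

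A gene was counted as bound when a summit, the position of highest signal in a peak, of the 10650 peaks kept by the authors lay no farther than 500 bp from an annotated transcription start site of the gene. The authors kept these peaks by their irreproducible discovery rate (IDR), which measures how well peak ranks repeat between replicates, and rank 1 is the peak with the highest deposited signal value. All of them are also the 10650 strongest peaks of the pooled list. A place on the IDR list therefore does not show that a given peak repeats in each replicate. Of the 3196 bound protein-coding genes, 6 were bound in no replicate and 125 in only 1, over the 10650 strongest peaks of each replicate. The 101 bases centred on the summits at 4 of the bound genes are shown here because they are the DNA on which the calls rest. They are read from the NCBI reference assembly in dm6 coordinates, on the strand of the gene, with the capitals marking words from a list of 12 promoter motifs. The capitals at ThrRS, HisRS and the stronger AsnRS summit mark the TATA box word, TATAAA or its reverse complement. Those at the stronger GlyRS summit mark the homeodomain word TAATTA, and the weaker summits of AsnRS and GlyRS hold none of the 12 words.
ThrRS, IDR summit of rank 1142, chr2L:12103526-12103626, forward strand: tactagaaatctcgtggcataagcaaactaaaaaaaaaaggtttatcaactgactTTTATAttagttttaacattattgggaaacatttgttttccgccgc
AsnRS, IDR summit of rank 1690, chr2L:19131968-19132068, reverse strand: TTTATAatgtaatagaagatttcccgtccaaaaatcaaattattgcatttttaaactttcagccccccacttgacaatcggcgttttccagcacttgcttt
AsnRS, IDR summit of rank 4884, chr2L:19132179-19132279, reverse strand: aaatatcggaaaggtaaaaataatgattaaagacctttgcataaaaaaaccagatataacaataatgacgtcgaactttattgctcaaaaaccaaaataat
GlyRS, IDR summit of rank 2704, chr3L:15094893-15094993, forward strand: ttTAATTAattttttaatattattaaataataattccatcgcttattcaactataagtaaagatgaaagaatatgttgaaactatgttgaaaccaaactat
GlyRS, IDR summit of rank 8606, chr3L:15095108-15095208, forward strand: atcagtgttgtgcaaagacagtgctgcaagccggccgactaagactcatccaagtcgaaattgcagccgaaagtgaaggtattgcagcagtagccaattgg
HisRS, IDR summit of rank 5209, chrX:18515281-18515381, forward strand: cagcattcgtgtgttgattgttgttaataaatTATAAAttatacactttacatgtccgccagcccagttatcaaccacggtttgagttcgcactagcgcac

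Base composition varied between these summits, and most were rich in A and T. The GC content of the 101 bases was 18.8% at the GlyRS summit of rank 2704 and 30.7% at the ThrRS summit. It was 40.6% at the HisRS summit and 49.5% at the second GlyRS summit, which lay at the start site itself. Over the 9 IDR summits in the windows of the bound genes the median was 25.7% (range 14.9 to 49.5), against a median of 33.7% over the 3190 IDR summits near starts of protein-coding genes. The TATA box word was present in 6 of the 9 (66.7%), against 22.4% of those 3190 summits. Among the summits with at most 30% GC, a limit chosen after the values were seen, the word was in 3 of 5 at the synthetase genes and in 497 of 1263 (39.4%) near starts of protein-coding genes. The part of base composition in the count was not tested. The homeodomain word was in 1 of 9 (11.1%, against 10%). The other 10 words were in none of the 9. They were the DRE (TATCGATA, 2.51% of the 3190 summits), the M1BP word (GGTCACAC, 2.45%), the word of Ohler 6 (GTATTT, 15.5%), the E-box of Ohler 5 (CAGCTG, 4.80%), the E-box CACGTG (0.846%), the GAGA factor word (GAGAG, 10%), the CRE (TGACGTCA, 0.094%), the composite word of ATF4 (TGATGNAA, 1.10%), the GATA word (AGATAA, 7.74%) and the Zelda word (CAGGTAG, 0.313%). All words were searched on both strands, and a word absent from these letters says nothing of the factor.

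Of the 33 synthetase genes, 7 were bound (21.2%, 95% exact binomial interval 8.98 to 38.9), beside 22.9% of all protein-coding genes (3196 of 13945). The share of the whole family was therefore near the background and is no result about the family. The bound genes were ThrRS, AsnRS, GlyRS, ValRS, HisRS and AlaRS among the cytoplasmic enzymes and CysRS-m alone among the mitochondrial ones. That made 6 of 18 cytoplasmic genes (33.3%, 13.3 to 59.0) and 1 of 15 mitochondrial genes (6.67%, 0.169 to 31.9), with intervals that overlap and cover counting error over genes only. Of the bound cytoplasmic genes, ThrRS, GlyRS and HisRS have no -m gene for their amino acid in the set. The bound genes were of middling strength: their best IDR ranks ran from 1142 to 6213 with a median of 3485, beside a median of 3409 over all bound protein-coding genes. None of the synthetase genes had a summit among the 1000 strongest IDR peaks, where 616 of the 3196 bound protein-coding genes had one.

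**Figure D1:**
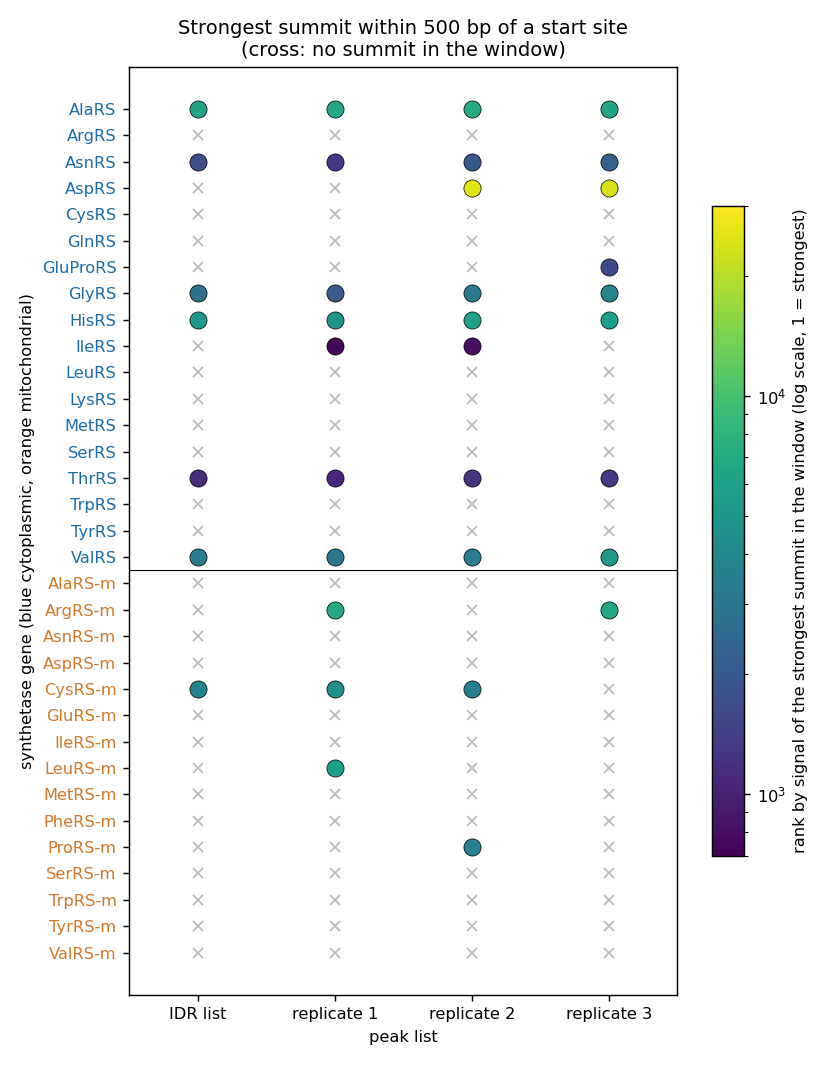
Rank by signal (colour, log scale, 1 is the strongest) of the strongest summit within 500 bp of a start site for each of the 33 genes (rows) in the IDR list and in the full list of 30000 peaks of each replicate (columns), with a cross where the window held no summit. ThrRS, AsnRS, GlyRS, ValRS, HisRS and AlaRS have a summit in all 4 columns, whereas IleRS has its summits, of rank 744 and 799, in replicates 1 and 2 only.

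ThrRS, which charges threonine tRNAs (chromosome 2L, 12103751 to 12107170), had the strongest IDR summit of the family. Its rank was 1142 in the IDR list and 1070, 1233 and 1286 in replicates 1, 2 and 3 (mean 1196 ± 113, SD, n = 3). The deposited signal value was 780, 841 and 559 in those replicates, on a scale that is not stated and can be read only within a list. The summit stood at -175 bp from the nearest ThrRS start in the IDR list and at -173, -180 and -191 bp in the replicates, so its place was nearly the same in each list. Patsas starts on the opposite strand 466 bp from the ThrRS start, and the same peak lies in its window.

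AsnRS, the asparagine enzyme (chromosome 2L, 19129469 to 19131954), had 2 IDR summits within 1 region of 567 bp. The stronger, of rank 1690, lay at -64 bp and had ranks 1276, 1968 and 2280 in the replicates. The weaker, of rank 4884, lay at -275 bp and only 94 bp from the start of DCTN6-p27, a gene for a subunit of the dynactin complex that runs the other way. Replicate 3 had this second summit at rank 13478, outside its 10650 strongest peaks, while replicates 1 and 2 had it at ranks 2885 and 6135. The peak nearest to AsnRS was thus strong in all 3 replicates, and the one nearest to its neighbour was weaker in replicate 3.

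GlyRS, the glycine enzyme (chromosome 3L, 15095142 to 15097686), also had 2 summits, at -199 bp with IDR rank 2704 and at 16 bp with rank 8606. The upstream summit had ranks 2021, 3258 and 3803 in the replicates and stayed between -222 and -199 bp. The summit at the start site was at rank 4602 in replicate 2 and 9152 in replicate 3, and replicate 1 had none there. Plp, which encodes a pericentrin-like protein of the centrosome, starts 418 bp away on the opposite strand. The upstream summit of replicate 2 was nearer to the Plp start, at 196 bp, than to that of GlyRS. A start of the gene sstn also lies within 500 bp of both IDR summits. In humans the gene for glycyl-tRNA synthetase supplies both the cytoplasm and mitochondria, and no GlyRS-m is among the 15 mitochondrial genes.

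HisRS, the histidine enzyme (chromosome X, 18515428 to 18520445), had 1 IDR summit of rank 5209 at -97 bp. Its ranks were 4592, 6062 and 5561 in the replicates, at -58, -98 and -80 bp. The annotation gives HisRS and Bx, a gene for a LIM-only protein, a start at the same base (a distance of 0 bp), so the peak cannot be assigned to one of them. A start of CG6470 also lies within 500 bp of the IDR summit of HisRS. AlaRS, the alanine enzyme (chromosome 2L, 8378262 to 8381764), had the weakest bound promoter of the synthetase genes, with IDR rank 6213 and ranks 6671, 7013 and 6417 in the replicates (mean 6700 ± 299, SD, n = 3). Its summit lay at -73 bp, no other gene starts within 500 bp, and the nearest other start, of CG13392, is 959 bp away. AlaRS is therefore a bound synthetase gene whose peak is near no other start.

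The alanine pair shows a bound cytoplasmic gene beside an unbound mitochondrial one, and the 200 bases from 150 bp before to 50 bp after each start are printed for that comparison. Capitals mark the words of the 12 motifs. They are the TATA box word and the DRE, the palindrome bound by Dref, in AlaRS. In AlaRS-m they are the TATA box word, read on both strands with an overlap, and the CAGCTG E-box, which occurs side by side upstream and again after the start.
AlaRS, start region, chr2L:8381715-8381914, reverse strand: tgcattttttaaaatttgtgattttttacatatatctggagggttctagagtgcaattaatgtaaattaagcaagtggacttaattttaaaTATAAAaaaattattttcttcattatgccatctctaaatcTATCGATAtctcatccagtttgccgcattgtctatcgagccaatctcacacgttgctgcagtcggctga
AlaRS-m, start region, chr3L:5145948-5146147, forward strand: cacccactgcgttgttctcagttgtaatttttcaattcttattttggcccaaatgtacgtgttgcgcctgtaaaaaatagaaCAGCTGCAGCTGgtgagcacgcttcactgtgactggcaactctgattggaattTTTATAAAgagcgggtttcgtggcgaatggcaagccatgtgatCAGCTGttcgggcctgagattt

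The AlaRS-m window held no summit in the IDR list, in the pooled list or in any replicate, and its nearest IDR summit was 6599 bp away. Both start regions contain the TATA box word, so its presence alone does not separate the bound from the unbound gene of this pair. Among 12 amino acids whose genes differ in symbol only by the ending -m, the cytoplasmic gene alone was bound for 3 (Ala, Asn and Val). The mitochondrial gene alone was bound for 1 (Cys), neither for the other 8, and both for none. GluProRS, GluRS-m and ProRS-m were not paired, and none of them was bound in the IDR list. With 22.9% of all protein-coding genes bound and only 12 pairs, the absence of a pair with both bound is no result about the pairs.

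ValRS, the valine enzyme (chromosome 2R, 13198850 to 13202709), was the bound gene with the most distant summit. It lay at -360 bp with IDR rank 3485, at -360, -357 and -413 bp in the replicates, with ranks 3073, 3459 and 5375. The start of Kdm4B, a histone demethylase gene on the opposite strand, was nearer, at 153 bp. ValRS was lost from the bound genes when the window was 250 bp or when each summit went only to its nearest start. Beyond the 500 bp limit, the next gene was LeuRS-m with an IDR summit of rank 484 at -841 bp. Dhc64C starts 166 bp from the LeuRS-m start on the opposite strand.

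CysRS-m, the mitochondrial cysteine enzyme (chromosome 2R, 14159096 to 14161262), had an IDR summit of rank 3874 at -69 bp, in DNA with 14.9% GC. Replicates 1 and 2 had it at ranks 4351 and 3622, at -60 and -93 bp. Replicate 3 had no summit in the window in its full list of 30000 peaks, and its nearest was 3642 bp away. The call for the only bound mitochondrial gene thus rested on replicates 1 and 2. Being in the IDR list without all 3 replicates was seen for 3.03% of the synthetase genes, beside 3.62% of all protein-coding genes. None of the 15 mitochondrial genes was bound in all 3 replicates, beside 19.8% of all protein-coding genes. This 0 of 15 allows a share of up to 20% when 3 counts are taken as the limit, and up to 21.8% by the 95% exact binomial interval. The background lies within both limits, so the 0 is no result about the mitochondrial enzymes. O-fut1, which encodes an enzyme that adds fucose to Notch, starts 168 bp away on the opposite strand. The replicate 2 summit was nearer to the O-fut1 start, at 75 bp, than to that of CysRS-m. CysRS (chromosome 2R), the cytoplasmic partner, had no summit in its window in any list, and its nearest IDR summit was 6926 bp away.

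**Figure D2:**
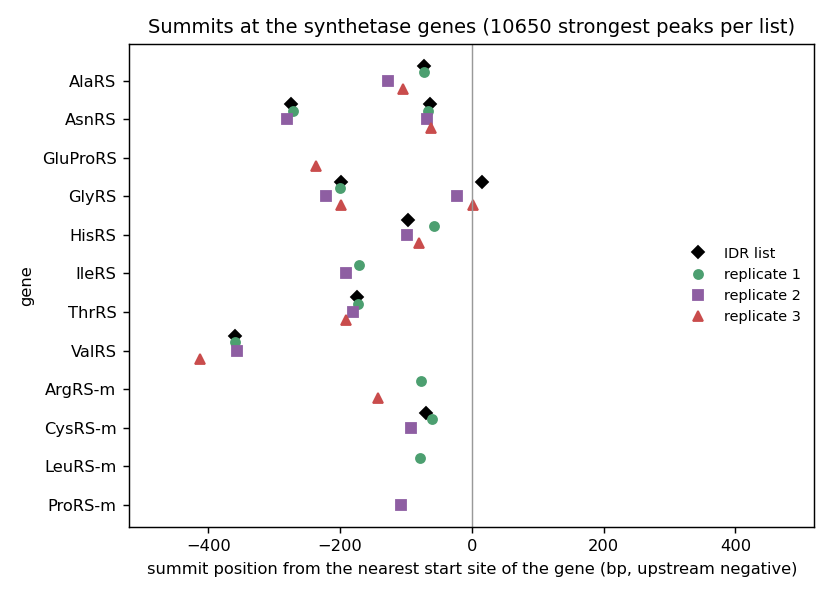
Position of each summit from the nearest start site of its gene (x axis, bp, upstream negative) for the genes (y axis) with a summit among the 10650 strongest peaks of the IDR list (diamonds) or of a replicate (circles, squares and triangles). Of the 9 IDR summits, 8 lie upstream of the start, from -360 to -64 bp, and the other lies at 16 bp.

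Of the 9 IDR summits, 7 had no other start nearer than that of the synthetase gene, and the others were the weaker AsnRS summit and that of ValRS. The 7 include the HisRS summit, which is as near to the shared start of Bx. A summit of a replicate's 10650 strongest peaks lay within 100 bp of 8, 9 and 7 of the 9 in replicates 1, 2 and 3 (88.9% ± 11.1, SD, n = 3). The same shares over all IDR peaks were 86.9%, 88.4% and 85.5%. The IDR list was made from these replicates, so the match describes the list.

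The cytoplasmic genes were bound more often than the mitochondrial ones in each replicate, but 3 replicates are too few for the test to pass a threshold. Over the 10650 strongest peaks of each replicate, 7 of 18 cytoplasmic genes (38.9%) were bound in replicates 1, 2 and 3 alike. Of the 15 mitochondrial genes, 3, 2 and 1 were bound (20%, 13.3% and 6.67%; mean 13.3% ± 6.67, SD, n = 3). The shares of all protein-coding genes were 25%, 23.2% and 25.1%. The background lay inside the 95% exact binomial interval of both classes in every replicate. That interval was 17.3 to 64.3% for the cytoplasmic genes in each replicate, and 4.33 to 48.1%, 1.66 to 40.5% and 0.169 to 31.9% for the mitochondrial genes. The difference between the classes was 18.9, 25.6 and 32.2 percentage points (mean 25.6 ± 6.67, SD, n = 3). The two-sided exact permutation test that flips the signs of the replicate differences gave p = 0.25, the smallest p that 3 replicates allow. The replicates share a control and most of the same genes, so their spread does not measure how far the shares would vary over other genes.

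**Figure D3:**
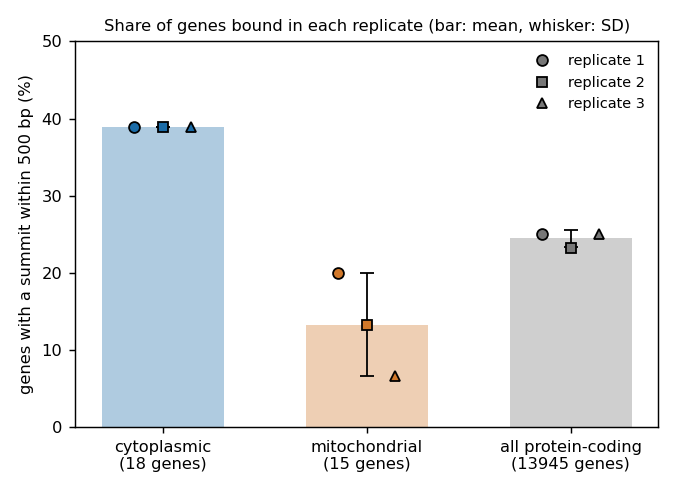
Share of genes (y axis, %) with a summit within 500 bp of a start site among the 10650 strongest peaks of each replicate (points), with the mean (bars) and SD (whiskers, n = 3), for the cytoplasmic and mitochondrial synthetase genes and all protein-coding genes. The cytoplasmic share is 38.9% in each replicate, and the mitochondrial share runs from 6.67% to 20%.

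The equal cytoplasmic counts did not come from the same genes. The 6 cytoplasmic genes of the IDR list were bound in all 3 replicates. The seventh was IleRS in replicates 1 and 2 and GluProRS in replicate 3. Among the mitochondrial genes, CysRS-m and ArgRS-m were each bound in 2 replicates and LeuRS-m and ProRS-m in 1. In all, 6 of 33 synthetase genes (18.2%) were bound in all 3 replicates, beside 19.8% of protein-coding genes, and 3 (9.09%) in exactly 1, beside 4.97%.

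IleRS, the isoleucine enzyme (chromosome 3L, 22288665 to 22292810), had the strongest replicate peaks of any synthetase gene and no IDR peak. Its summit had rank 744 in replicate 1 and 799 in replicate 2, with signal values of 1005 and 1128, at -171 and -191 bp. Replicate 3 and the pooled list had no summit in the window at all, the nearest being 11852 and 11880 bp away. Only 3 of the 1000 strongest peaks of each replicate had no pooled summit within 500 bp, and in replicates 1 and 2 IleRS was among these 3. The cause was not tested. Hem, a gene for a subunit of the SCAR actin regulator, starts 470 bp away on the opposite strand. The sequence is shown, chosen after the values were seen, because it is the site on which the lists differ most. It holds none of the 12 words and has 26.7% GC.
IleRS, replicate 1 summit, chr3L:22288444-22288544, forward strand: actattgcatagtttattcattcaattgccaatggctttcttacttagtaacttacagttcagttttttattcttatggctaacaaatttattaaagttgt

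Other unbound genes had a replicate summit too. GluProRS (chromosome 3R, 23952136 to 23958391) had a summit of rank 1609 in replicate 3 alone, at -236 bp and 24 bp from the start of AP-1sigma, a subunit gene of a clathrin adaptor. ProRS-m (chromosome 3L), the mitochondrial proline enzyme, had one of rank 3670 in replicate 2 alone, at -108 bp in DNA with 13.9% GC. LeuRS-m (chromosome 3L), the mitochondrial leucine enzyme, had one of rank 5781 in replicate 1 alone, at -79 bp. These genes were each bound in a different replicate. ArgRS-m (chromosome 3R), the mitochondrial arginine enzyme, had summits of rank 6778 in replicate 1, at -77 bp, and 6585 in replicate 3, at -142 bp. AspRS (chromosome 2R), the aspartate enzyme, had only weak ones, of rank 25371 in replicate 2, 23991 in replicate 3 and 24487 in the pooled list, all nearest to the start of Lfg. Being bound in at least 2 replicates and not in the IDR list was seen for 2 of the 33 genes (6.06%, IleRS and ArgRS-m), beside 2.32% of all protein-coding genes (323 of 13945), a rule applied after the values were seen.

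The remaining 20 unbound genes had no summit in the window in any list. The 9 cytoplasmic ones were ArgRS, CysRS, GlnRS, LeuRS, LysRS, MetRS, SerRS, TrpRS and TyrRS, the enzymes for arginine, cysteine, glutamine, leucine, lysine, methionine, serine, tryptophan and tyrosine. Their nearest IDR summits were 2524 to 23837 bp away, with a median of 6981 bp. The 11 mitochondrial ones were AlaRS-m, AsnRS-m, AspRS-m, GluRS-m, IleRS-m, MetRS-m, PheRS-m, SerRS-m, TrpRS-m, TyrRS-m and ValRS-m, with nearest IDR summits 2731 to 28157 bp away and a median of 8496 bp. Of all unbound genes, the nearest misses were LeuRS-m at 841 bp, AspRS at 1409 bp, SerRS at 2524 bp, SerRS-m at 2731 bp and GluProRS at 4628 bp. Between 360 bp, the farthest bound summit, and 841 bp no synthetase gene had its nearest IDR summit. TyrRS and GluRS-m follow each other on the same strand of 3L, and their starts, 2125 bp apart, share the nearest IDR summit at 9957 and 7832 bp.

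**Figure D4:**
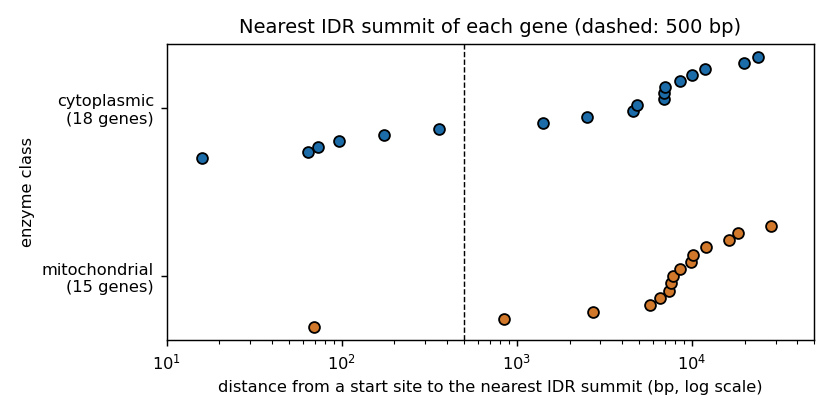
Distance from a start site to the nearest IDR summit (x axis, bp, log scale) for the 18 cytoplasmic and 15 mitochondrial genes, 1 point per gene, with the 500 bp limit dashed. The 6 bound cytoplasmic genes, and CysRS-m, lie left of the line, and the other 26 lie at 841 bp or more.

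The classes also differed in how their promoters are placed, a feature that bears on the window used here. Of the 18 cytoplasmic genes, 15 (83.3%) had the start of another gene within 500 bp of their own 5' end, and 14 of them (77.8% of the class) had one on the opposite strand. Of the 15 mitochondrial genes 7 (46.7%) had such a neighbour, always on the opposite strand, beside 33.4% of all protein-coding genes. Among all protein-coding genes, those with a neighbouring start were bound in 30.5% of cases and those without in 19.1%. Among the synthetase genes the shares were 5 of 22 (22.7%) with a neighbouring start and 2 of 11 (18.2%) without. Within the cytoplasmic class, 4 of 15 genes with a neighbour were bound and 2 of 3 without, AlaRS and ValRS, although the ValRS neighbour is just outside at 513 bp. Within the mitochondrial class, 1 of 7 with a neighbour was bound and 0 of 8 without. The part of this arrangement in the class difference was not tested.

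Over the promoters themselves, from 250 bp before to 50 bp after the 5' end of the gene, the bound genes shared a word. All 7 bound genes held the TATA box word, beside 11 of the 26 unbound synthetase genes (42.3%) and 45.8% of all protein-coding promoters. This window covers most of the IDR summits of the bound genes, so the count partly reuses the DNA already searched at the summits. The part of base composition in it was not tested. The CAGCTG E-box went the other way, in 1 of 7 bound genes, which was HisRS, and 15 of 26 unbound ones (57.7%). Of the 12 words, these had the widest gaps between bound and unbound genes. The next was the GATA word, in 0 of 7 and 5 of 26 (19.2%). The share of the TATA box word over promoters of all bound protein-coding genes is not given. The word therefore cannot be called particular to bound synthetase genes. Over all 33 synthetase promoters the CAGCTG E-box was in 16 (48.5%), beside 17.7% of all protein-coding promoters. It was as frequent in the cytoplasmic (9 of 18) as in the mitochondrial class (7 of 15). The median GC content was 33.3% for bound genes, 36.3% for unbound synthetase genes and 38% for all protein-coding genes. The DRE was in 5 of the 33 promoters (15.2%, beside 9.36%) and the M1BP word in 4 (12.1%, beside 7.70%). The ATF4 composite word was in 1 (CysRS, 3.03% beside 4.07%), and the CRE and the Zelda word were in none (0.437% and 1.64% of all promoters). The words GTATTT and GAGAG were less frequent here than over all promoters, at 21.2% beside 33.4% and 18.2% beside 29.7%. The homeodomain word (15.2% beside 20.4%), the GATA word (15.2% beside 18.7%) and CACGTG (6.06% beside 4.20%) lay closer to all promoters. These are counts of letters in 33 windows, with no test.

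**Figure D5:**
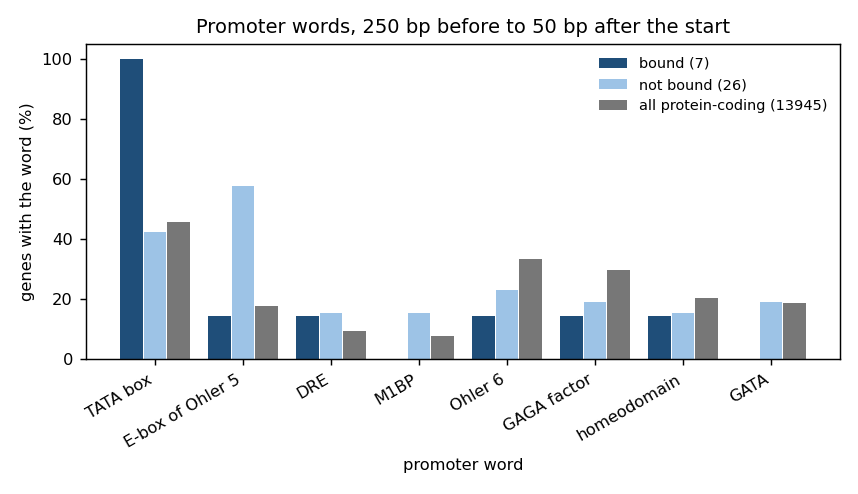
Share of genes (y axis, %) whose promoter window holds each of 8 words (x axis), for the 7 bound and 26 unbound synthetase genes and all 13945 protein-coding genes. The TATA box word is in 100% of the bound and 42.3% of the unbound genes, and the E-box of Ohler 5 in 14.3% and 57.7%.

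Gene length and number of starts overlapped widely between bound and unbound genes. Bound genes were 2167 to 5018 bp long (median 3420) and unbound ones 1595 to 10949 bp (median 2744), and both had a median of 1 start site.

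The 16 related genes were listed as working with the synthetases, and not all take part in tRNA charging itself. Of these, 4 were bound (25%), close to the 22.9% of all protein-coding genes. GatA, a subunit of the amidotransferase that makes glutaminyl-tRNA in mitochondria, had IDR rank 3015 and ranks 2994, 3768 and 2651 in the replicates. The elongation factor gene eEF1alpha1, whose product brings charged tRNAs to the ribosome, had IDR rank 3917 and ranks 3485, 4229 and 4124. crc, which encodes the Drosophila ATF4, a factor that induces amino acid response genes, had IDR rank 5618 with the summit at -261 bp, and ranks 6299, 6031 and 6065. Slimp, a relative of mitochondrial SerRS, had IDR rank 7169 with the summit at -75 bp, and ranks 7117, 7568 and 8388. These 4 were also bound in all 3 replicates. The 12 others had no IDR summit in the window. They were alpha-PheRS and beta-PheRS, the scaffold genes AIMP1, AIMP2 and AIMP3, the other amidotransferase subunits GatB and GatC, the deacylase gene Dtd, the kinase gene Gcn2, and eEF1alpha2, mEFTu1 and mEFTu2. With both cytoplasmic PheRS subunits and PheRS-m unbound, no phenylalanine enzyme was bound.

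Other families of the translation machinery, taken by symbol, were bound at different shares in the IDR list. Genes named eIF, the initiation factors, were bound at 8 of 44 (18.2%, 95% exact interval 8.19 to 32.7), which overlaps the synthetase interval. Mitochondrial ribosomal protein genes stood at 30 of 73 (41.1%, 29.7 to 53.2) and cytoplasmic ones named RpL or RpS at 52 of 85 (61.2%, 50 to 71.6). The interval of the cytoplasmic ones lies above that of the whole synthetase family. It overlaps that of the 18 cytoplasmic synthetase genes (33.3%, 13.3 to 59.0). The mitochondrial synthetase share, 6.67%, was below that of mitochondrial ribosomal protein genes, with intervals that overlap between 29.7% and 31.9%. The difference between families was not tested.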

How the data were processed

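The deposited files are peak lists on dm6 for each replicate, for the pooled replicates and for the IDR selection. Text files deposited with the samples name 1 control alignment behind every replicate list and the pooled list, and name those lists as the source of the IDR list. Which aligner, peak caller and filters the authors used is not given in the sources. Each replicate and pooled list holds 30000 peaks. The signal per peak is the authors' value, relative to the control on an unstated scale, so it was read as ranks within a list. The deposited −log10 q-value was not used.

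Genes and all transcript starts came from Ensembl release 115 (BDGP6.54) and sequence from the NCBI assembly, both in dm6 coordinates. A summit was the peak start plus the deposited offset, counted from 1, and transposable elements were left out. Replicates were compared over their 10650 strongest peaks. Shares have 95% exact binomial intervals that cover counting error over genes only. Classes were compared by an exact sign-flip permutation over replicates, and no test was run over lists of genes. The calls were tested on simulated data. Alternatives changed the window, the list, the assignment, the start sites and the replicates. Of 17 related symbols, 16 matched. Every synthetase gene is named, and those with a summit are given in full. The genes and lists were chosen with earlier results of these data known. Python 3.11.15, numpy 2.4.6, pandas 2.3.3, scipy 1.17.1 and matplotlib 3.10.9 were used.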

Additional observations from a re-analysis of the deposited data

How the results depend on the processing

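The count of bound synthetase genes, 7, ran from 6 to 8 over the other windows, lists and ways of assigning summits and was 9 when at least 2 of 3 replicates were asked for, an alternative chosen after seeing the data. The cytoplasmic count, 6, ran from 5 to 7. The mitochondrial count, 1, was 2 with a window of 1000 bp (LeuRS-m added) and with at least 2 of 3 replicates (ArgRS-m added). It was 0 with IDR peaks matched in all 3 replicates, and 0 to 1 when each replicate was left out in turn, being 0 without replicate 1 or 2 (CysRS-m lost). Leaving out a replicate here counts only IDR peaks matched in both others. The difference between the classes in the replicates, 25.6 points, ran from 20 to 33.3 points in the alternatives and from 22.2 to 28.9 points when a replicate was left out; its exact p was 0.25 or, with 2 replicates, 0.5, and the 33.3 points, from a single list, have no p. The related genes, 4, fell to 2 among IDR peaks above the median signal. Counted once per word and summit, the motif words were found 7 times within 50 bp of the summits and 11 times within 100 bp, a wider window. The TATA box word made 6 of the 7 and 8 of the 11. Within 100 bp it was at 88.9% of the synthetase summits, beside 36.3% of the 3190 summits near starts of protein-coding genes. At that width the DRE, GAGA factor and homeodomain words were at 1 synthetase summit each. Of 73 values under alternatives, 66 kept their direction and lay within 1.5 times of the value reported or on its side of the threshold. Read depth is unknown, so an unbound gene is one without a peak in these lists and not one shown to lack the protein.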
